A study of Mus musculus with 2 samples.

Results

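The Reelin pathway was examined through 4 of the 32285 genes in the deposited tables: Reln, the secreted ligand, Vldlr and Lrp8, its receptors, and Dab1, the intracellular adaptor of both receptors. They were chosen by name, with earlier results of these data known, and each symbol matched 1 row. In the developing cortex, reelin is released mainly by Cajal-Retzius cells below the pia. It binds VLDLR and ApoER2 (the product of Lrp8) on neurons that migrate along radial glia, and the bound receptors cause Src family kinases to phosphorylate DAB1. Without the ligand, without both receptors or without the adaptor, cortical neurons fail to settle in their layers, as in the reeler mouse.

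The cells came from embryos at embryonic day 14.5, in 2 droplet-based single-cell libraries of 1 group (genotype WT, line EomesDot, tissue field "Brain hemispheres"). The protocol label and the study's methods name the dorsal telencephalon, whereas its reporting form names the basal telencephalon as the source of the single cells for this stage, so the dissected region is uncertain. The methods also name C57BL/6J embryos, and how these relate to the EomesDot label is not stated. The methods state that each sample was loaded separately and the study gives a number of embryos for this stage, but neither ties embryos to these libraries. The p-values therefore measure only the spread between these 2 samples. The libraries are named replicate 2 and replicate 4 after their titles, and no other treatment or genotype was compared.

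Replicate 2 held 40267872 UMIs (molecular tags, each marking 1 captured transcript) over 1712 barcodes, and replicate 4 held 49422007 over 2589. After filtering, 1199 and 1923 cells were retained, with medians of 30810 and 22826 UMIs per cell, and 1 barcode sequence was retained in both libraries. The cells fell into 23 clusters, whose names were rebuilt here from marker genes and need not match those in the study. The 4 genes were not used to make or name the clusters. Radial glial cell (RGC)-like clusters had 10 of 10 RGC markers raised, intermediate progenitor cell (IPC)-like clusters 6 to 8 of 8, excitatory neuron-like clusters 9 to 11 of 12 and the Cajal-Retzius-like cluster 10 of 10. The lineage classes grade into each other: the Mki67-high IPC-like cluster also had 9 of 10 RGC markers raised, the IPC-like cluster led by Eomes and Neurod1 had 7 of 12 excitatory neuron markers, and the excitatory neuron-like cluster led by Unc5d had 6 of 8 IPC markers. An unnamed cluster of 131 cells with 10 of 10 RGC markers raised was led by Ttr, a choroid plexus gene. Interneuron-like cells of the medial ganglionic eminence (MGE), a subpallial source of cortical interneurons, had 3 to 7 of 9 markers raised. The libraries also held striatal projection neuron-like cells, 1 in replicate 2 and 68 in replicate 4.

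Levels are given as CPM, the UMIs of a gene per 1e+06 UMIs of all genes summed over the cells of a class in 1 library, and means carry the SD over both libraries (n = 2). Cell Ranger of this version counts intronic reads by default, and whether this was changed is not stated, so levels were compared between classes for 1 gene and never between genes. In mm10 coordinates, Reln (ENSMUSG00000042453) spans chromosome 5 from 21884454 to 22344705 on the minus strand. Vldlr (ENSMUSG00000024924) lies on chromosome 19 from 27216480 to 27254231, Lrp8 (ENSMUSG00000028613) on chromosome 4 from 107802200 to 107876840, and Dab1 (ENSMUSG00000028519) on chromosome 4 from 103619500 to 104744844, all 3 on the plus strand. The files list genes on the opposite strand of Reln, Vldlr and Lrp8 with few UMIs. The largest was Lrp8os2, with 739 UMIs against 13170 of Lrp8, and how the counting handled strand is not given in the sources used here.

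Reln was concentrated in Cajal-Retzius-like cells. Its level there was 5846 CPM in replicate 2 and 10035 CPM in replicate 4, from 2346 and 7085 UMIs. This class made up 1.33% and 1.25% of retained cells and held 52.4% and 72.4% of all Reln UMIs in the 2 libraries. Each of its 16 and 24 cells carried at least 1 Reln UMI, with medians of 148 and 149 per cell and maxima of 348 and 962. Reln was also the leading gene of this cluster, although it was neither among its 10 markers nor among the genes used for clustering.

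Among the 7 named classes with 10 cells or more per library, the next Reln level was that of MGE interneuron-like cells, 491 and 197 CPM (344 ± 207). It lay apart from the Cajal-Retzius-like values and from those of excitatory neuron-like cells in both libraries. Excitatory neuron-like cells stood at 51.3 and 73.6 CPM (62.5 ± 15.8) and IPC-like cells at 23.2 and 95.4 CPM (59.3 ± 51.1), and these ranges overlapped. GABAergic neuron-like cells of no sub-class followed at 13.8 and 29.8 CPM, where 1 cell held 3 of the 6 and 23 of the 26 UMIs (7.22 and 3.47 CPM without it). RGC-like cells were at 2.95 and 2.29 CPM (20 UMIs in each library), overlapping with meningeal-like cells (0 and 2.68 CPM).

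Because excitatory neuron-like cells were 46.1% and 43.9% of all cells, their low level still amounted to 22.1% and 16.1% of the Reln UMIs. MGE interneuron-like cells held 13.6% and 2.74%, and IPC-like cells 2.90% and 6.47%. Caudal ganglionic eminence (CGE) interneuron-like cells, another subpallial interneuron class, held 204 Reln UMIs in the 5 cells of replicate 2, of which 157 came from 1 cell, and 44 in the 30 cells of replicate 4. Their level was 2549 CPM in replicate 2 (1137 CPM without that cell) and 126 CPM in replicate 4. This was above MGE interneuron-like cells in replicate 2 and below them in replicate 4.

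**Figure D1:**
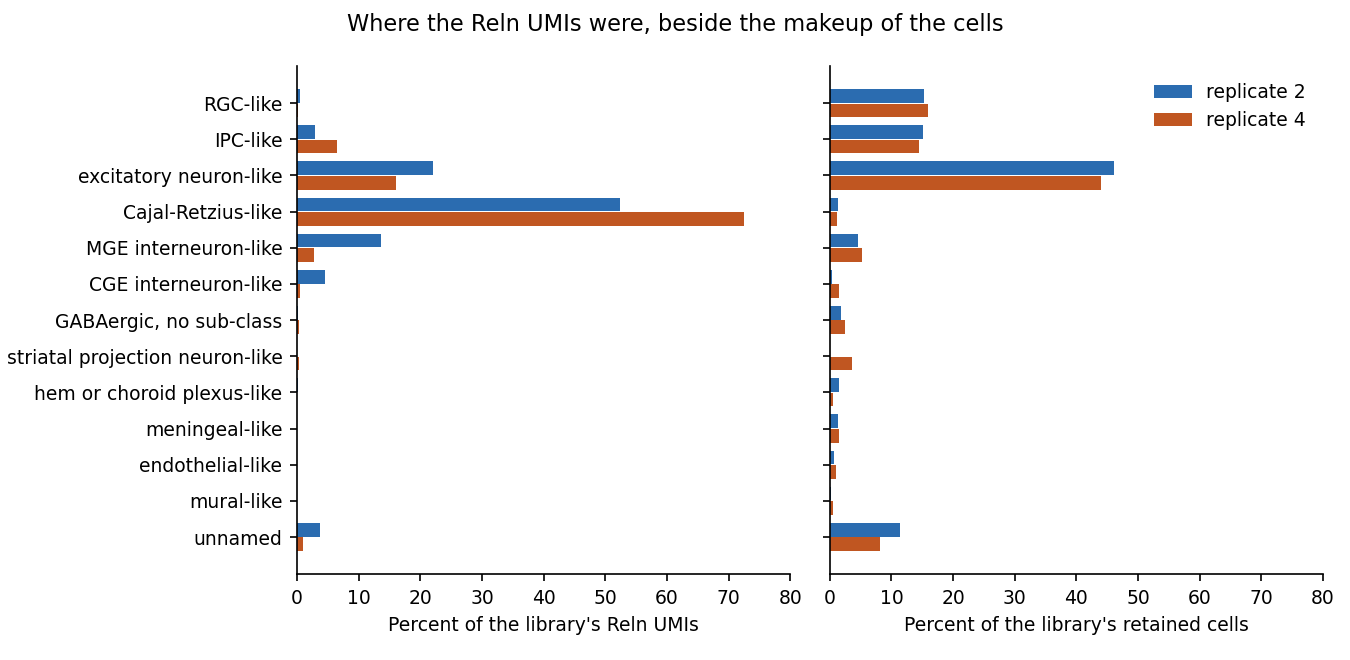
The left panel shows the percent of a library's Reln UMIs held by each cell class and the right panel that class's percent of retained cells, with 1 bar per class and library. Cajal-Retzius-like cells held 52.4% and 72.4% of Reln UMIs while making up 1.33% and 1.25% of cells.

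Reln-positive cells outside the Cajal-Retzius-like class were mostly cells with few Reln transcripts. To compare classes of unequal depth, each cell was thinned to 5000 UMIs, which left out 66 and 125 shallower cells. A Reln UMI then remained in 13 of 13 and 21 of 21 Cajal-Retzius-like cells, 52.8% and 29.7% of MGE interneuron-like cells, 12.1% and 15.1% of excitatory neuron-like cells and 7.43% and 8.30% of IPC-like cells. RGC-like cells, taken here as a type that should lack the gene, had one in 1.66% and 0.667%, with median depths of 34289 and 28256 UMIs before thinning against 33952 and 24284 in excitatory neuron-like cells, and this share is read as background. Without thinning, the mean shares were 51.8% ± 15.8 in MGE interneuron-like, 24.2% ± 0.95 in excitatory neuron-like, 14.6% ± 1.17 in IPC-like and 5.17% ± 0.377 in RGC-like cells.

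At a stricter level of 10 or more Reln UMIs among 5000, 10 of the 18 cells in replicate 2 and 20 of the 29 in replicate 4 were Cajal-Retzius-like. The 10 Cajal-Retzius markers were summed in cells of other classes with and without a Reln UMI, and the direction varied. In IPC-like cells the summed marker level was 177 and 194 CPM with a Reln UMI against 141 and 123 CPM without, and in excitatory neuron-like cells 79.8 and 51.3 against 26.0 and 38.7 CPM. Among MGE interneuron-like cells the sum stood at 110 and 55.5 against 50.9 and 69.1 CPM and in RGC-like cells 53.7 and 6.60 against 14.6 and 8.80 CPM, higher with a Reln UMI in replicate 2 and lower in replicate 4. The Cajal-Retzius-like class itself stood at 3157 and 3312 CPM. The part of such cells, or of free RNA, in the lower Reln levels was not tested.

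**Figure D2:**
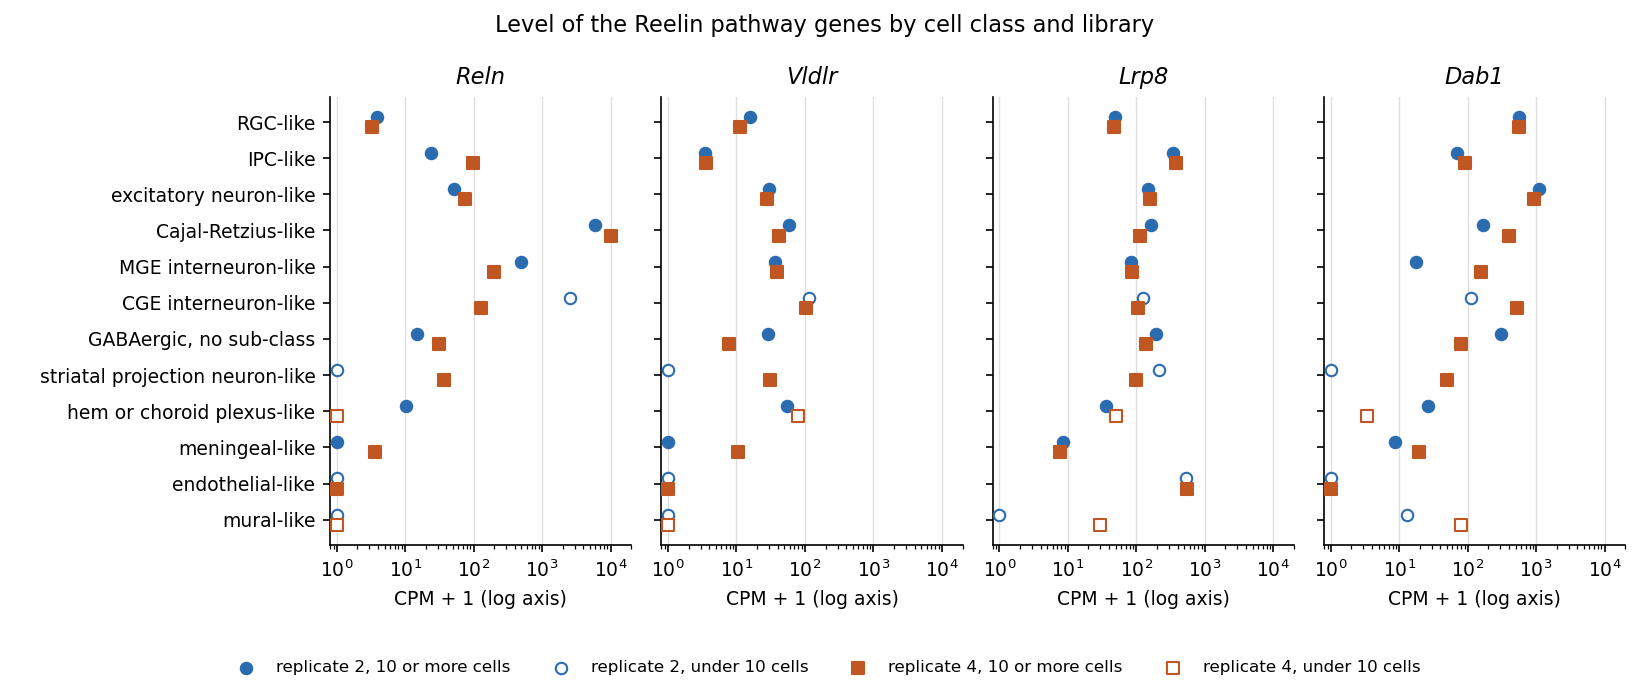
Levels of Reln, Vldlr, Lrp8 and Dab1 (CPM + 1, log axis) in each named cell class, with 1 point per library (circles replicate 2, squares replicate 4, open where the class had under 10 cells in that library). Reln is highest in Cajal-Retzius-like cells, Lrp8 is higher in IPC-like than in RGC-like cells, and Dab1 is high in excitatory neuron-like and RGC-like cells and low in IPC-like cells.

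Vldlr, the first of the receptors, was a low-count gene (850 and 898 UMIs in retained cells) and had its lowest mean among the 7 tested classes in IPC-like cells, although endothelial-like and mural-like cells, outside the test, had 0 UMIs. Among the 7 classes that entered the test, those of 10 cells or more per library, the order began with Cajal-Retzius-like cells at 57.3 and 41.1 CPM (49.2 ± 11.5), followed by MGE interneuron-like cells at 35.3 and 37.5 CPM (36.4 ± 1.57) and excitatory neuron-like cells at 29.1 and 26.6 CPM (27.9 ± 1.81). RGC-like cells had 14.6 and 10.3 CPM (12.4 ± 3.05), a range that overlapped with GABAergic neuron-like cells of no sub-class (27.5 and 6.88 CPM). IPC-like cells had 2.50 and 2.56 CPM, from 14 and 17 UMIs, inside the range of meningeal-like cells (0 and 9.39 CPM).

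After thinning, a Vldlr UMI was seen in 12.3% and 9.65% of excitatory neuron-like cells, 6.63% and 4.33% of RGC-like cells and 2.86% and 1.51% of IPC-like cells. None of the 16 and 28 meningeal-like cells had one, but so few cells leave wide limits, and at this depth Vldlr in IPC-like cells could not be told from background. Without thinning the mean shares were 38.4% ± 8.10 in excitatory neuron-like, 26.2% ± 7.50 in RGC-like and 5.93% ± 1.77 in IPC-like cells.

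Lrp8 had the opposite profile along the excitatory lineage, with its highest neural level in IPC-like cells. The level was 338 and 374 CPM in IPC-like cells (356 ± 24.9), 147 and 159 CPM in excitatory neuron-like cells (153 ± 8.60) and 47.2 and 47.0 CPM in RGC-like cells (47.1 ± 0.138), with no overlap between these 3 classes. Cajal-Retzius-like cells (162 and 110 CPM) and GABAergic neuron-like cells of no sub-class (190 and 136 CPM) each overlapped with excitatory neuron-like cells. MGE interneuron-like cells lay apart below them at 81.9 and 86.1 CPM (84.0 ± 3.0), and meningeal-like cells had 7.62 and 6.71 CPM.

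Thinned to equal depth, an Lrp8 UMI remained in 68.0% and 70.9% of IPC-like cells, 50.2% and 51.5% of excitatory neuron-like cells, 26.4% and 34.1% of MGE interneuron-like cells and 14.9% and 20.3% of RGC-like cells. Meningeal-like cells, a type that should lack the gene, had one in 6.25% and 0%, at median depths of 39554 and 26695 UMIs before thinning against 30058 and 23115 in IPC-like cells. The unthinned shares, 85.7% ± 2.21 in IPC-like and 91.0% ± 3.81 in excitatory neuron-like cells, stand in the other order, and no order is read from them.

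By class, Dab1 was high at both ends of the lineage and low between them. Excitatory neuron-like cells had 1091 and 934 CPM (1013 ± 111) and RGC-like cells 558 and 570 CPM (564 ± 8.36), whereas IPC-like cells had 69.6 and 89.5 CPM (79.6 ± 14.1). These 3 classes did not overlap. Cajal-Retzius-like cells had 164 and 399 CPM, a range overlapping with GABAergic neuron-like cells of no sub-class (310 and 80.2 CPM).

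In MGE interneuron-like cells the libraries disagreed on Dab1, with 16.9 CPM (21 UMIs) in replicate 2 and 158 CPM (214 UMIs) in replicate 4. A single cell held 18 of the 21 UMIs in replicate 2. In replicate 4, 169 of the 214 UMIs came from 18 cells of a sub-cluster led by Sst, the gene of the neuropeptide somatostatin, that had no cell in replicate 2. These 18 cells had 3 of 9 MGE markers raised and all fell into the striatal projection neuron-like class at the coarser clustering (resolution 0.5). Replicate 4 was also the library with the 68 striatal projection neuron-like cells, in which Dab1 stood at 49.5 CPM, and the part of those cells in this difference was not tested.

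By detection after thinning, Dab1 was seen in 83.4% and 84.7% of RGC-like cells, 62.5% and 55.6% of excitatory neuron-like cells, 21.7% and 25.3% of IPC-like cells and 3.77% and 15.4% of MGE interneuron-like cells. No endothelial-like cell, thinned or not, had a Dab1 UMI (0 of 9 and 0 of 18, at median depths of 16901 and 16685 UMIs), which are few cells. RGC-like cells thus had the higher share of cells with Dab1 and excitatory neuron-like cells the higher level, and the unthinned shares (98.9% ± 0.771 against 69.4% ± 6.74) stood in the same order.

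Within the lineage the clusters showed where these levels changed. An excitatory neuron-like cluster led by Unc5d, Slc17a6 and Eomes, with 125 and 245 cells, had only 28.5 and 31.5 CPM of Dab1 and 9.58 and 4.28 CPM of Vldlr, but 206 and 236 CPM of Lrp8. Its Dab1 lay below the 69.6 and 89.5 CPM of the IPC-like class, unlike that of the excitatory neuron-like class as a whole. The clusters with the highest Dab1 were one led by Arpp21, with 2249 and 2354 CPM, and one led by Rgs6, with 2080 and 1723 CPM. Vldlr was at 38.4 and 38.2 CPM in the former and 68.7 and 58.3 CPM in the latter, and Lrp8 at 116 and 120 and at 90.1 and 102 CPM. Across these 3 clusters Dab1 and Vldlr were therefore low where Lrp8 was high. The clusters are parts of the same libraries and were not tested against each other.

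**Figure D3:**
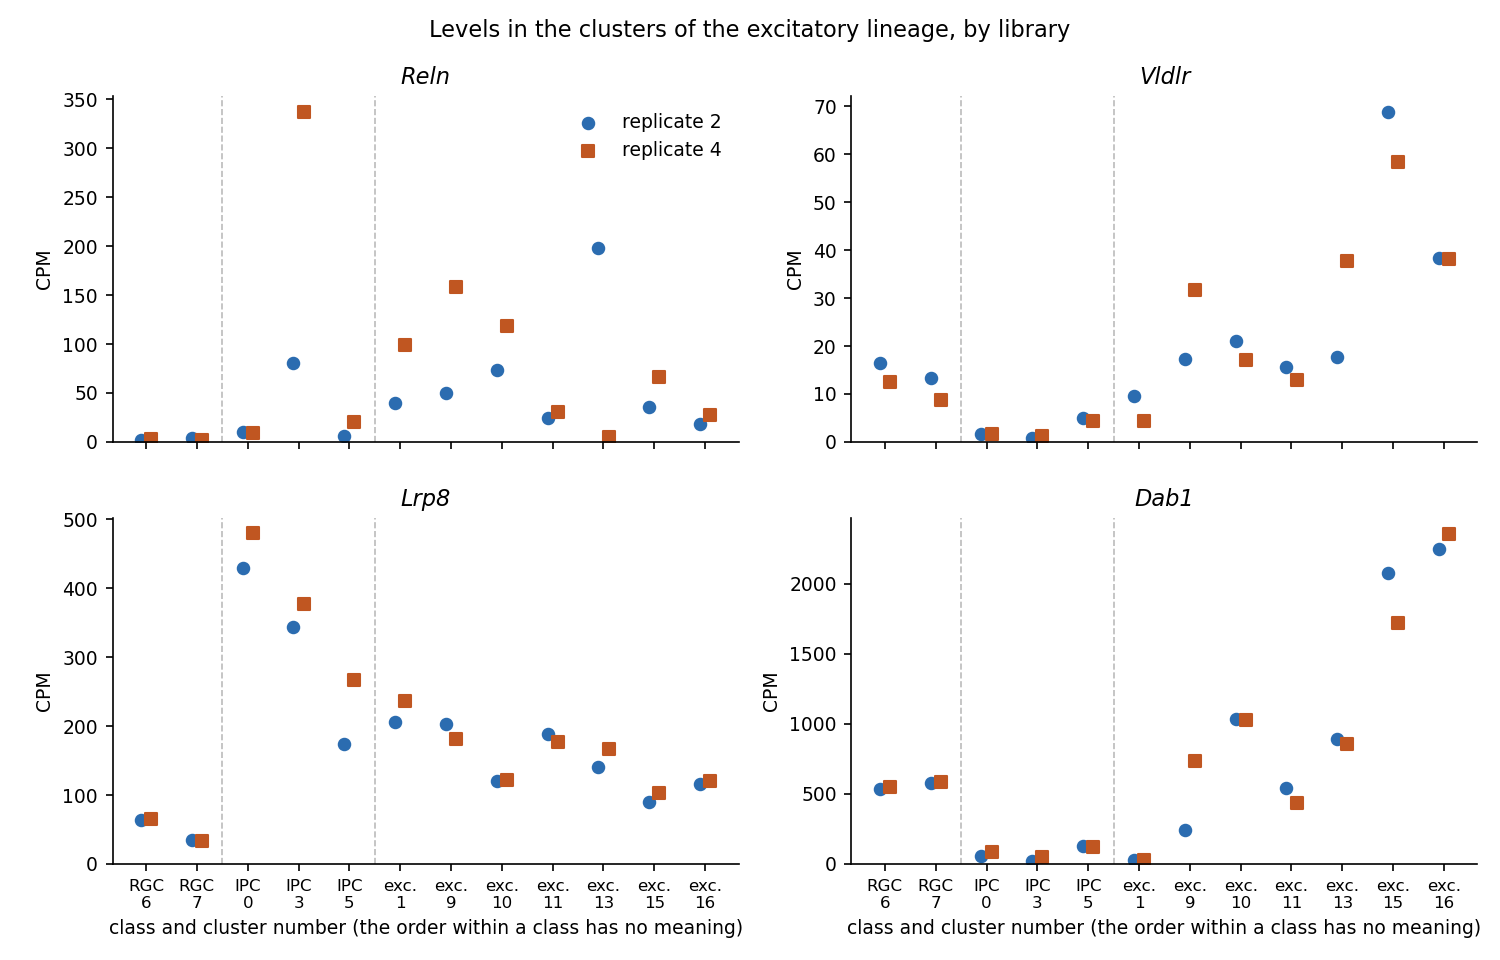
Levels of the 4 genes (CPM, linear axes that differ between panels) in the RGC, IPC and excitatory (exc.) clusters, with 1 point per cluster and library. The Unc5d-led cluster is number 1, the Rgs6-led 15 and the Arpp21-led 16, and Dab1 was at 28.5 and 31.5 CPM in cluster 1 and at 1723 CPM or more in clusters 15 and 16.

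Among progenitors, the RGC-like cluster with high Mki67, a marker of dividing cells, had 34.8 and 33.3 CPM of Lrp8 against 63.4 and 65.6 CPM in the other RGC-like cluster, and both had similar Dab1 (575 and 582 against 536 and 552 CPM). In IPC-like cells Lrp8 was 429 and 479 CPM in the cluster led by Gm29260, Eomes and Neurog2 and 174 and 267 CPM in the Mki67-high cluster. Reln in the IPC-like class came mainly from 1 cluster of 32 and 58 cells led by Eomes and Neurod1, with 93 of 130 and 558 of 633 UMIs and levels of 80.2 and 337 CPM. The other IPC-like clusters stood between 5.62 and 20.8 CPM. The Reln-rich cluster had 2 of 10 Cajal-Retzius markers raised, and so had the cluster led by Gm29260, Eomes and Neurog2, with 9.84 and 9.31 CPM of Reln. Nhlh2, one of the 10 markers, was among the 10 leading genes of the Reln-rich cluster, whereas the other cluster had none of the markers there.

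Reln also varied within excitatory neuron-like cells and not in the same way in both libraries. A cluster led by Tafa1 and Tafa2 had 198 CPM in replicate 2 (270 UMIs in 40 cells) and 5.27 CPM in replicate 4 (12 UMIs in 109 cells). In the Unc5d-led cluster the values were 39.8 and 98.7 CPM.

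Ligand, receptor and adaptor transcripts met in different proportions of cells. After thinning, a Dab1 UMI together with a UMI of either receptor was found in 32.9% ± 6.0 of excitatory neuron-like, 27.3% ± 4.92 of Cajal-Retzius-like, 19.0% ± 3.36 of RGC-like, 13.4% ± 1.92 of IPC-like and 5.34% ± 4.88 of MGE interneuron-like cells. Dab1 without a receptor UMI was the most frequent combination in RGC-like cells (65.1% ± 2.49), against 26.1% ± 1.12 in excitatory neuron-like and 10.1% ± 0.602 in IPC-like cells. In IPC-like cells a receptor without Dab1 prevailed (57.3% ± 0.152), against 24.1% ± 5.61 in excitatory neuron-like and 3.27% ± 0.849 in RGC-like cells.

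Lrp8 without Vldlr was found in 16.7% ± 4.14 of RGC-like, 68.4% ± 3.03 of IPC-like and 46.1% ± 1.47 of excitatory neuron-like cells. Neither receptor was seen in 77.8% ± 2.52, 29.4% ± 2.07 and 42.9% ± 0.389 of these classes. UMIs of both receptors were seen in 12.5% ± 4.14 of Cajal-Retzius-like and 4.76% ± 0.518 of excitatory neuron-like cells. Reln with Dab1 and a receptor was found in 4 of 13 and 5 of 21 Cajal-Retzius-like cells and in 28 of 546 and 36 of 819 excitatory neuron-like cells. These shares depend on the depth of 5000 UMIs, so a missing UMI does not show a missing transcript. They did not always follow the level, since Dab1 had its higher share in RGC-like and its higher level in excitatory neuron-like cells.

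**Figure D4:**
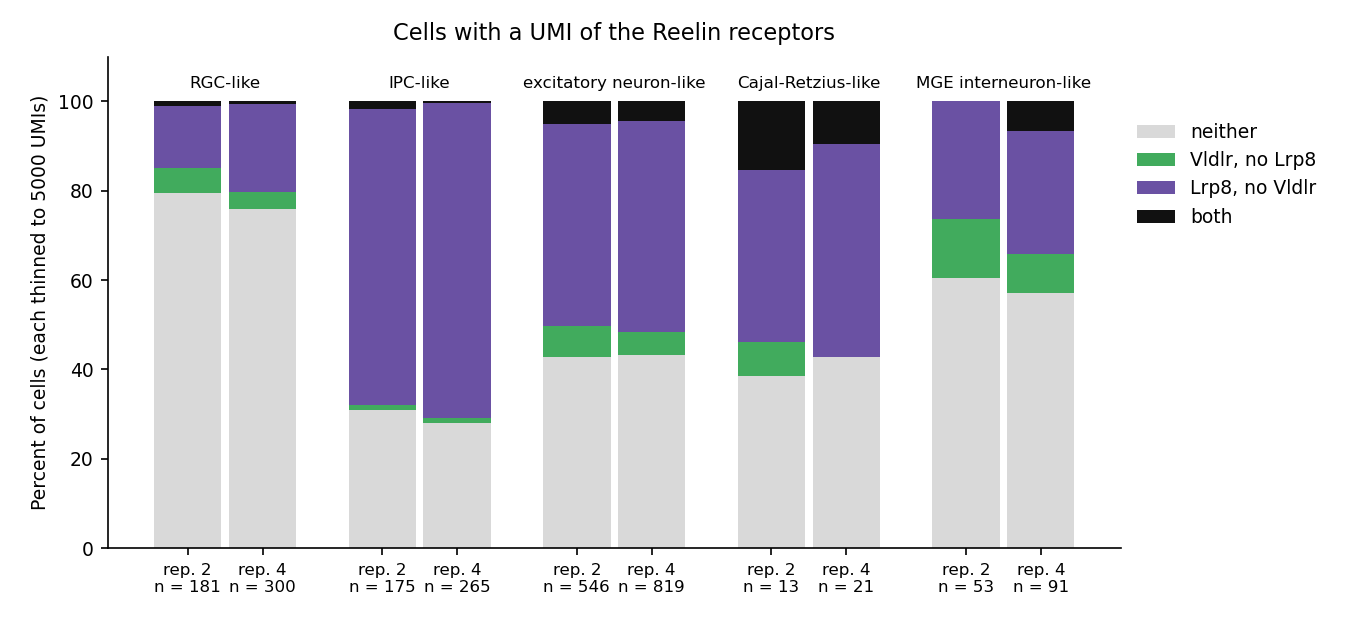
Percent of cells, each thinned to 5000 UMIs, with a UMI of neither receptor, of Vldlr alone, of Lrp8 alone or of both, as 1 stacked bar per class and library with the number of cells (n) under it. Cells with neither receptor prevail in RGC-like cells (mean 77.8%) and cells with Lrp8 alone in IPC-like cells (mean 68.4%).

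The differences between classes were tested on UMI sums per library with edgeR's quasi-likelihood test over 12461 genes, and Benjamini-Hochberg adjustment at a threshold of 0.05 set the calls. All 4 genes passed the filter on low counts in this fit and in the separate fit of Sst-positive cells. The 4 comparisons share classes (IPC-like sums enter 2 of them, excitatory neuron-like sums 3), so they are not independent of each other.

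The step from RGC-like to IPC-like cells was the comparison in which all 4 members differed, beside 27.4% of all genes tested. Lrp8 was 7.56-fold higher in IPC-like cells (log2 difference 2.96, SE 0.19, adjusted p = 3.35e-06, n = 2 libraries, edgeR), with log2 ratios of 2.82 and 2.96 in the 2 libraries. Dab1 was 7.09-fold higher in RGC-like cells (log2 difference −2.78, SE 0.78, adjusted p = 0.0209) and Vldlr was higher there too (−2.23, SE 0.47, adjusted p = 0.00454). Reln was higher in IPC-like cells (log2 difference 4.55, SE 0.74, adjusted p = 0.00101), with log2 ratios of 2.61 and 4.88. The RGC-like reference, 20 UMIs in each library, was read above as background, so the size of this difference and of its library ratios is not read as a measured fold. At a coarser clustering (resolution 0.5), where the Reln-rich cluster left the IPC-like class for unnamed (26 and 49 cells) and excitatory neuron-like cells (6 and 9), the log2 fold change was 2.38 (adjusted p = 0.0303).

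From IPC-like to excitatory neuron-like cells Dab1 and Vldlr rose and Lrp8 fell, beside 35.8% of all genes called (18.4% higher in excitatory neuron-like cells and 17.4% lower). Dab1 was 12.7-fold higher in excitatory neuron-like cells (log2 fold change 3.83, SE 0.81, adjusted p = 0.00332) and Vldlr was higher as well (3.61, SE 0.44, adjusted p = 8.24e-05). Vldlr in IPC-like cells could not be told from background, so the fitted log2 fold changes of Vldlr in both comparisons carry the direction and the test, and their size is not read as a measured fold. Lrp8 was 2.32-fold lower than in IPC-like cells (log2 difference −1.05, SE 0.17, adjusted p = 0.000645, edgeR). Reln had a log2 fold change of 0.24 (SE 0.59, adjusted p = 0.786), with the libraries on opposite sides at 1.11 and −0.37. It was called at resolution 0.5 (2.35, adjusted p = 0.0117), where the Reln-rich cluster had left the IPC-like class, and stood at −0.19 with cells of at least 500 genes kept. With cells of at least 500 genes kept, the Lrp8 difference was −1.15 with an adjusted p of 0.133.

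**Figure D5:**
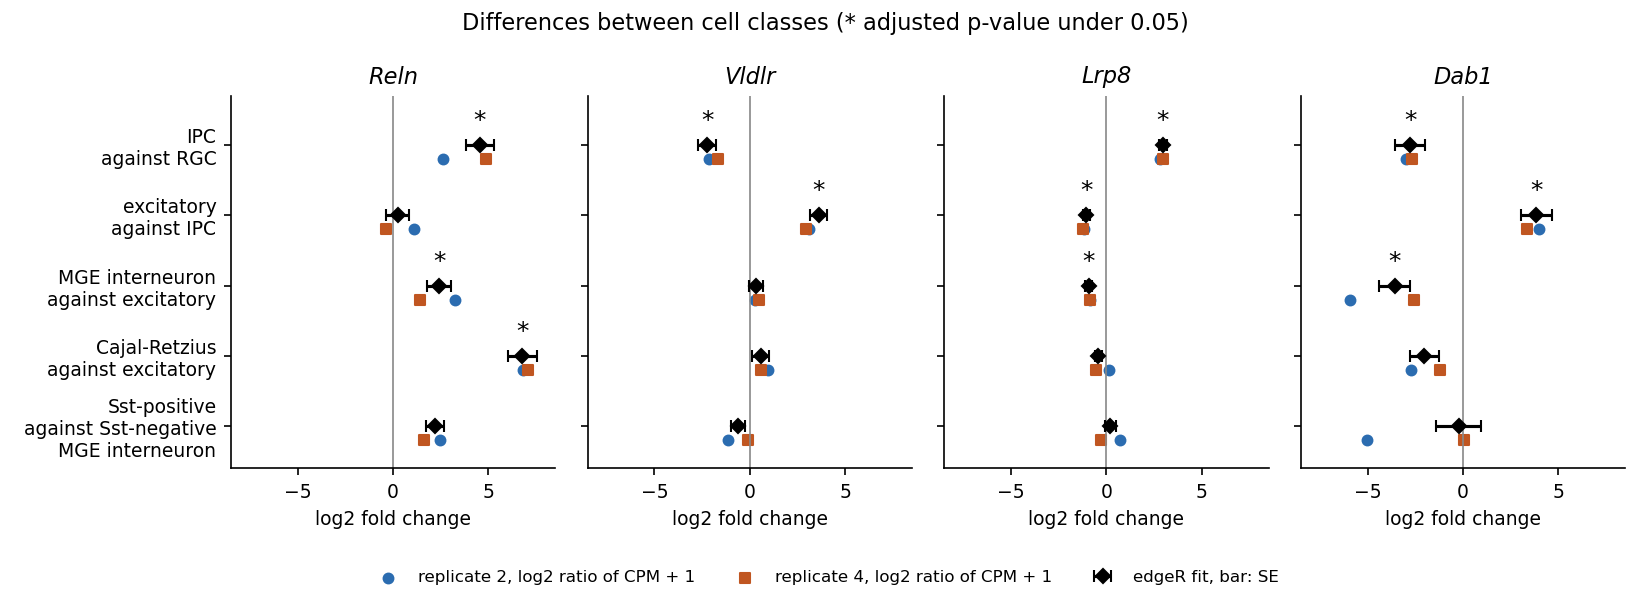
Log2 fold changes of the 4 genes in each comparison (diamonds, edgeR fit, bars SE, asterisk for an adjusted p under 0.05), with the log2 ratio of CPM + 1 of each library below it (circles replicate 2, squares replicate 4). In IPC-like against RGC-like cells Reln and Lrp8 are above 0 and Vldlr and Dab1 below 0, and in excitatory neuron-like against IPC-like cells Vldlr and Dab1 are above 0 and Lrp8 below.

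MGE interneuron-like cells differed from excitatory neuron-like cells in the ligand, in Lrp8 and in the adaptor, beside 19.2% of all genes called (7.51% higher and 11.7% lower). Reln was 5.51-fold higher in MGE interneuron-like cells (log2 difference 2.41, SE 0.62, adjusted p = 0.0174), with log2 ratios of 3.23 and 1.41. Lrp8 was 1.83-fold lower (−0.92, SE 0.19, adjusted p = 0.00473) and Dab1 11.6-fold lower by the mean levels (−3.59, SE 0.82, adjusted p = 0.00992), with log2 ratios as far apart as −5.93 and −2.56. The Vldlr difference was 0.33 (SE 0.37, adjusted p = 0.602). Without the sub-cluster found only in replicate 4, the log2 fold change of Dab1 was −5.16 (adjusted p = 0.000244) and that of Reln 2.48 (adjusted p = 0.0135). With cells of at least 500 genes kept, the adjusted p was 0.0980 for Reln and 0.299 for Lrp8, and it was 0.0985 for Lrp8 at a limit of 5% mitochondrial UMIs.

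Cajal-Retzius-like cells differed from excitatory neuron-like cells in Reln, beside 14.9% of all genes called (7.56% higher and 7.34% lower). Its mean level was 127-fold higher (log2 fold change 6.78, SE 0.75, adjusted p = 0.000139, edgeR), with log2 ratios of 6.81 and 7.07. The receptors did not pass the test, with log2 fold changes of 0.56 for Vldlr (SE 0.43, adjusted p = 0.440) and −0.42 for Lrp8 (SE 0.19, adjusted p = 0.183), and the library ratios of Lrp8 had opposite signs (0.14 and −0.53). Dab1 was lower in both libraries, by log2 ratios of −2.72 and −1.22, but did not pass the test (−2.03, SE 0.77, adjusted p = 0.105), while it passed in 7 of the 11 alternatives tried (in 1 of them, resolution 0.5, the class held mostly cells of an unnamed cluster), with adjusted p from 1.78e-17 to 0.120.

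Within the MGE interneuron-like class, cells with at least 1 Sst UMI (23 and 34) were set against cells with none (31 and 67), because the study takes Sst-positive interneurons as sending cells. The Sst-positive cells were deeper, with medians of 25713 and 15037 UMIs against 23396 and 9500. Reln stood at 878 and 321 CPM in Sst-positive and 158 and 104 CPM in Sst-negative cells, with no overlap. Its log2 fold change of 2.18 (SE 0.47, edgeR over 7703 genes) had an unadjusted p of 0.00225 and an adjusted p of 0.360, in a comparison with 0.0389% of genes called (3 genes, and 569 at an unadjusted p under 0.05). With the library as a block, which the shared origin of the sums allows, the adjusted p was 0.00298 at a log2 fold change of 2.05, and with cells thinned to 5000 UMIs it was 0.706 at 1.12.

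The other members showed no call between Sst-positive and Sst-negative cells. Vldlr had a log2 fold change of −0.60 (SE 0.37, adjusted p = 0.779) and Lrp8 of 0.21 (SE 0.29, adjusted p = 0.915). Dab1 was listed with 0 UMIs in Sst-positive cells of replicate 2 and 161 CPM in those of replicate 4, against 31.3 and 155 CPM in Sst-negative cells, so this comparison says little about it.

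The other genes of the pathway were taken from a list of 52, from proteases that cut reelin to kinases and the machinery that degrades DAB1, of which 49 were tested in the class comparisons. In IPC-like against RGC-like cells 7 rose and 7 fell (28.6% of those tested, against 27.4% of all genes), with a median log2 fold change of 0.19 against 0.01 over all genes. Cdk5r1, which encodes the p35 activator of the kinase Cdk5, had 43.9 and 46.9 CPM in IPC-like and 6.93 and 5.26 CPM in RGC-like cells (log2 difference 2.95, adjusted p = 3.77e-06). Fyn, a kinase of DAB1, had 336 and 384 against 191 and 206 CPM (0.90, adjusted p = 0.00538). Clu and Apoe, whose products are other ligands of these receptors, were higher in RGC-like cells, at log2 fold changes of −3.13 (adjusted p = 0.00121) and −2.13 (adjusted p = 0.000433).

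In excitatory neuron-like against IPC-like cells 10 of the 49 rose and 3 fell (26.5%, against 35.8% of all genes), with a median of 0.24 against −0.01. Adamts3, which encodes a protease that cleaves reelin, had 232 and 246 CPM in excitatory neuron-like and 10.9 and 15.5 CPM in IPC-like cells (log2 difference 4.33, adjusted p = 1.41e-05). Mapt, the gene of tau, had 411 and 401 against 30.5 and 42.5 CPM (3.64, adjusted p = 4.63e-06), and Cdk5r1 rose by a log2 fold change of 1.91 (adjusted p = 1.12e-05). Nectin3, a cell adhesion gene, was lower in excitatory neuron-like cells, at 33.1 and 29.1 against 99.9 and 95.7 CPM (−1.49, adjusted p = 8.09e-05), as were Apoe (−1.04, adjusted p = 0.0298) and Socs6, a gene of the DAB1 degradation machinery (−0.52, adjusted p = 0.0452). Socs7, listed with the same machinery, was called in the other direction, at 35.5 and 36.5 against 29.6 and 30.6 CPM.

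Between MGE interneuron-like and excitatory neuron-like cells 4 list genes rose and 6 fell (20.4%, against 19.2% of all genes), with medians of −0.05 and −0.06. Thbs1, whose product can bind both receptors, had 61.0 and 26.5 CPM in MGE interneuron-like and 1.04 and 0.842 CPM in excitatory neuron-like cells (log2 fold change 5.45, adjusted p = 0.000111). Adamts3 was at 3.21 and 8.83 against 232 and 246 CPM (−5.34, adjusted p = 2.95e-05). Adamts2, another reelin protease, had 0 UMIs in both MGE interneuron-like sums and 7.78 and 6.36 CPM in excitatory neuron-like cells (adjusted p = 0.0275), and 3 UMIs would correspond to 2.41 and 2.21 CPM.

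Cajal-Retzius-like against excitatory neuron-like cells had 1 list gene higher and 5 lower (12.2%, against 14.9% of all genes), with a median of −0.34 against −0.08. Nectin1, an adhesion gene whose product binds nectin-3, stood at 132 CPM in Cajal-Retzius-like cells of each library and at 18.6 and 19.0 CPM in excitatory neuron-like cells (log2 fold change 2.59, adjusted p = 0.000121). Adamts3 had 0 and 7 UMIs in Cajal-Retzius-like cells (−5.47, adjusted p = 0.000125). With 0 UMIs in replicate 2, where 3 UMIs would correspond to 7.48 CPM, the size of this change is not read as a measured fold. Socs6 was lower, with a log2 fold change of −1.34 (adjusted p = 0.0144). In the Sst comparison 0 of 38 list genes were called by edgeR.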

How the data were processed

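Dissociated cells of both WT libraries were profiled with a 10x Genomics 3′ kit. The authors deposited raw UMI counts per gene and barcode without normalization. The submitters' processing notes name Cell Ranger 7.0.0 and mm10. Gene coordinates were taken from RefSeq (GRCm38.p6, the mm10 assembly), in which 4 of 4 genes matched.

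Barcodes under 1000 genes or over 10% mitochondrial UMIs were dropped in scanpy 1.11.5, and Scrublet doublets (12 in replicate 2, 48 in replicate 4) were removed. Values scaled to 10000 per cell were log-transformed. Clustering used 2000 variable genes without the members and the pathway list, 30 principal components, 20 neighbours and Leiden resolution 1, and a repeat on GABAergic neuron-like cells with 15 neighbours gave 9 sub-clusters. Names needed 3 raised markers, meaning 10 CPM added, a level above the median cluster by 1 or more on the log2 scale, and UMIs in 25% of cells. Outside the sub-clusters, lists within 0.1 of the best share of raised markers were separated by their markers among the 10 leading genes. This named the Mki67-high cluster IPC-like over RGC-like. No name was given where another list had more markers among these genes, or where a shallow cluster had none of its own there. The naming rule was adjusted after the first clustering had been seen, and the members, marker lists and pathway list were chosen with earlier results of these data known.

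UMI sums of 7 classes, those of 10 cells or more per library, were fitted together (14 sums) in edgeR 4.0.16 (TMM, filterByExpr), tried on simulated data beforehand. The simulated sums were independent, with the same spread for every gene and few changed genes, a simpler setting than these data. The Sst comparison had its own fit of 4 sums. The SE was taken as the absolute log2 fold change over √F. Library ratios are log2 ratios of CPM + 1. Sums of a library share its cells' origin, which pairs them, and their deviations had a median r of 0.0805 over the 21 class pairs (−0.0416 to 0.312) and 0.300 between the Sst sums. Exact intervals and floors cover counting error only. Alternatives were other cell filters, resolutions, normalizations, tests, a split of the UMIs and the library as a block. From the pathway list, the 3 largest called changes in each direction that kept 1 sign in both libraries were eligible for naming. Socs7 was named outside this rule, beside Socs6. CGE interneuron-like against MGE interneuron-like cells was not tested, since replicate 2 held 5 CGE interneuron-like cells. Results of some genes eligible for naming are left out here, though counts include them.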

Additional observations from a re-analysis of the deposited data

Results flagged for a closer look

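Barcodes with under 1000 detected genes (442 in replicate 2 and 423 in replicate 4) were left out of the reported comparisons, apart from the alternative that kept cells of at least 500 genes, and all 4 genes were found in them above the limit that a count of 0 allows, 4.28 and 3.07 CPM for 3 UMIs in the 2 libraries. Reln stood at 51.42 CPM (36 UMIs) in replicate 2 and 51.09 CPM (50 UMIs) in replicate 4, against 51.3 and 73.6 CPM in excitatory neuron-like, 23.2 and 95.4 CPM in IPC-like and 2.95 and 2.29 CPM in RGC-like cells. Vldlr had 18.57 and 4.088 CPM, from 13 and 4 UMIs. Lrp8 had 37.13 and 20.44 CPM, from 26 and 20 UMIs. Dab1 had 115.7 and 61.31 CPM, from 81 and 60 UMIs.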

How the results depend on the processing

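Under the alternatives 232 log2 fold changes were counted as kept, 12 gained a call, 4 lost one, 3 reversed and 16 moved, with no test. Tested values counted as kept if direction and side of the threshold stayed. Values with no test counted as kept if they shifted by under 1 SD of the 2 library ratios. Their sign was checked only for called genes, so untested values of other genes that crossed 0 are not among the reversals. Counts stayed within 1.5 times in 84 and moved in 13. Leaving out a replicate leaves the ratio of the other library as a value with no test. These ranged from 3.37 to 3.95 (Dab1) and 2.95 to 3.11 (Vldlr) and −1.22 to −1.19 (Lrp8) in excitatory neuron-like against IPC-like cells. In IPC-like against RGC-like cells they ranged from 2.61 to 4.88 (Reln), −2.16 to −1.66 (Vldlr) and 2.82 to 2.96 (Lrp8). They were −0.88 to −0.84 for Lrp8 and −5.93 to −2.56 for Dab1 in MGE interneuron-like cells against excitatory neuron-like cells, 6.81 to 7.07 (Reln), 0.61 to 0.95 (Vldlr) and −0.53 to 0.14 (Lrp8) in Cajal-Retzius-like against excitatory neuron-like cells, and −5.01 to 0.061 for Dab1 in the Sst comparison.

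With at least 500 genes per cell, Lrp8 was −0.96 (adjusted p = 0.299) and Reln 2.56 (adjusted p = 0.0980) in MGE interneuron-like cells against excitatory neuron-like cells, and Lrp8 was −1.15 (adjusted p = 0.133) and Reln reversed to −0.19 in excitatory neuron-like against IPC-like cells. At 5% mitochondrial UMIs Lrp8 was −1.02 (adjusted p = 0.0985) in the former comparison. Without the cell richest in the gene, an alternative chosen after seeing the data, Lrp8 was −0.93 there and Vldlr 3.21 in excitatory neuron-like against IPC-like cells. At resolution 0.5 the Cajal-Retzius-like class grew to 67 and 61 cells by taking up 51 and 37 cells of an unnamed, shallow cluster led by Cyba and Hba-a1, so its values there describe mostly other cells. That resolution gave Reln 2.35 (adjusted p = 0.0117) in excitatory neuron-like against IPC-like cells and Lrp8 −0.95 (adjusted p = 0.00559) in Cajal-Retzius-like against excitatory neuron-like cells, with 3844 genes and 16 list genes called.

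Dab1 in Cajal-Retzius-like against excitatory neuron-like cells passed the threshold with all genes of at least 1 count (−2.16), at 5% mitochondrial UMIs (−2.12), with classes from another part of the UMIs (−2.11), with doublets kept (−2.0), with only the compared classes fitted (−2.01) and at resolutions 0.5 (−2.36) and 2 (−2.22). The cause was not tested. Of the genes called in this comparison, 60.9% were higher by the DESeq2 Wald test and 50.7% by edgeR. Fitting only the compared classes called 5244 genes in IPC-like against RGC-like cells and 6875 in excitatory neuron-like against IPC-like cells, with 22 list genes in the latter. In MGE interneuron-like cells against excitatory neuron-like cells, 16 list genes were called by the DESeq2 Wald test, which called 3054 genes in all against 2397 in edgeR, and 16 with all genes, where 3315 were called.

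In the Sst comparison the library as a replicate block raised the called genes from 3 to 77 and called Reln (2.05), the only member whose call it changed. The DESeq2 Wald test called 20 genes and Reln (2.18, adjusted p = 0.00230), and all genes of at least 1 count gave 119 and Reln (2.17). At least 3 Sst UMIs gave 7 genes and reversed Dab1 to 0.053, and leaving out the sub-cluster of 1 library, chosen after seeing the data, gave 20. With thinned cells 0 genes were called (239 at an unadjusted p under 0.05, edgeR), and Lrp8 reversed to −0.0023.

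Levels moved by over 1 SD of the 2 libraries, often a small spread, as follows in CPM. At 500 genes Dab1 was 52.7 and Vldlr 2.08 in IPC-like, Lrp8 79.5 and Vldlr 33.9 in MGE interneuron-like, Lrp8 50.1 in RGC-like and Vldlr 29.97 in excitatory neuron-like cells, which held 14.6% of Reln UMIs. At 5% mitochondrial UMIs Dab1 was 537 and Lrp8 42.8 in RGC-like, Lrp8 78.3 in MGE interneuron-like and Vldlr 2.69 in IPC-like cells. With doublets kept Dab1 was 53.4, Lrp8 407 and Vldlr 2.03 in IPC-like, Lrp8 79.6 and Vldlr 33.8 in MGE interneuron-like, and Lrp8 48.5 and Reln 3.56 in RGC-like cells. As a mean over cells Dab1 was 869, Lrp8 165 and Vldlr 24.5 in excitatory neuron-like, Lrp8 49.7 in RGC-like, Vldlr 2.59 in IPC-like and Vldlr 33.5 in MGE interneuron-like cells. At resolution 0.5 Dab1 was 52.8, Lrp8 407 and Vldlr 2.29 in IPC-like (0.812% of Reln UMIs), Dab1 547 and Lrp8 46.5 in RGC-like, Lrp8 83.4 and Vldlr 32.3 in Cajal-Retzius-like and Lrp8 79.6 and Vldlr 34.7 in MGE interneuron-like cells. At resolution 2 Dab1 was 43.6 and Vldlr 2.24 in IPC-like, Dab1 521, Lrp8 63.1 and Reln 5.11 in RGC-like (0.80% of Reln UMIs), and Vldlr 30.2 in excitatory neuron-like cells.

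Thinning lowered the mean share of cells with a UMI to 16.3% (Vldlr) and 55.5% (Lrp8) in Cajal-Retzius-like, 23.5% (Dab1), 69.5% (Lrp8), 7.87% (Reln) and 2.18% (Vldlr) in IPC-like, 30.2% (Lrp8) and 14.3% (Vldlr) in MGE interneuron-like, 84.0% (Dab1), 17.6% (Lrp8), 1.16% (Reln) and 5.48% (Vldlr) in RGC-like, and 59.0% (Dab1), 50.9% (Lrp8), 13.6% (Reln) and 11% (Vldlr) in excitatory neuron-like cells, and left Reln at 100% in Cajal-Retzius-like cells. Depth limits what can be said of Vldlr in IPC-like cells, and CGE interneuron-like cells were too few in replicate 2 to test.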

Other observations

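Lrp8 was also high outside the neural classes. Endothelial-like cells, 9 in replicate 2 and 18 in replicate 4, stood at 538 and 540 CPM (158 and 211 UMIs), and at 467 and 422 CPM without the cell with the most Lrp8 UMIs. After thinning an Lrp8 UMI remained in 7 of 9 and 8 of 12 of these cells, while none had a UMI of Reln, Vldlr or Dab1. They made up 0.751% and 0.936% of cells and held 2.75% and 2.84% of Lrp8 UMIs. Being under 10 cells in replicate 2, the class entered no test.

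Vldlr stood at 53.6 and 78.1 CPM in hem or choroid plexus-like cells (18 and 9 cells) and at 112 and 102.9 CPM in CGE interneuron-like cells (5 and 30 cells), with CPM values above those of the tested classes except for an overlap of the hem or choroid plexus-like with the Cajal-Retzius-like range. CGE interneuron-like cells also had 112 and 532 CPM of Dab1, above both MGE interneuron-like libraries only in replicate 4, and 1 cell held 6 of the 9 and 91 of the 186 UMIs (72.6 and 293 CPM without it). These classes were not tested.

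The genes whose level followed each member most closely over the 14 sums of 7 classes (Pearson r of log2 of CPM + 10, a description over sums that share libraries) were Fam189a1, Car10 and Nptxr for Reln (0.954 each) and Rab6b (0.939), Nap1l3 (0.935) and Wrb (0.935) for Vldlr. For Lrp8 they were Ago1 (0.977), Polr3k (0.956) and Miat (0.955), and for Dab1 Abcc1 (0.887), Schip1 (0.873) and Sybu (0.865). Car10 is itself one of the Cajal-Retzius markers used to name that class.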
